A study of Homo sapiens with 9 samples.

Results

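The genes described here are 10 members of the matrix metalloproteinase system of human cells: the proteases MMP1, MMP2, MMP7, MMP9, MMP10 and MMP14, the tissue inhibitors TIMP1, TIMP2 and TIMP3, and the membrane-anchored inhibitor RECK. They were taken by symbol, as all probe sets that the array annotation assigns to one of them alone. This gave 24 of the 54675 probe sets, and all 10 genes among the 19775 named on the array. RNA from 3 breast epithelial cell lines had been hybridised to single-colour Affymetrix arrays, 3 for each line. They descend from MCF-10A, a non-tumorigenic breast epithelial line, and all 3 carry activated HRAS. The labels give them as successive disease stages. MII is MCF-10AT1Kcl2, a model of carcinoma in situ. MIII is MCF-10A1h, a model of carcinoma. MIV is MCF-10A1a, a model of carcinoma that metastasises. All were grown untreated in the same medium with horse serum, insulin, cholera toxin, epidermal growth factor and hydroxycortisone, as the labels spell it. Each stage is represented by 1 line, so stage and line cannot be told apart. The arrays of a line are called biological replicates, but separate cultures are not stated, so p-values reflect array-to-array spread alone, part of which may be technical.

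Matrix metalloproteinases are zinc-dependent enzymes that cut collagens, laminins, other matrix proteins and cell surface proteins. They are made as inactive precursors, and their activity is set by transcription, by removal of the propeptide and by inhibitors. TIMPs block the active site of the mature enzymes, and RECK, held in the membrane by a lipid anchor, restrains several of them at the cell surface. MMP14, itself a membrane protein, activates the precursor of MMP2 in a complex that contains TIMP2. In many carcinomas the stroma supplies much of the protease and inhibitor, whereas MMP7 is typically made by the glandular epithelium. RNA levels alone do not report enzyme activity.

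The median signal per array was 69.0 to 71.7 in MII, 72.1 to 74.9 in MIII and 64.7 to 65.2 in MIV, and no array repeated another. One array stood apart in a hybridisation control: the mean bioB spike-in signal was 2620 on MIV replicate 3, against 823 to 1283 on the others. Of 8 measured mammary epithelial markers, 7 had a mean above the pooled median of all signals (69.3) in every line, KRT5, KRT18 and EPCAM among them, and KRT19 was below it in every line. The number of arrays limits the precision.

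TIMP3, TIMP2, MMP2 and MMP7 fell in MIV relative to each of the other lines, and MMP2 and TIMP1 were higher in MIII than in both. Of the 8 members bright enough to be tested, 5 fell in MIV against MIII, 4 fell in MIV against MII, and 2 rose in MIII against MII. Over all 12594 genes tested, the share called lower in MIV against MIII was 7.79%, the share called lower in MIV against MII was 5.18%, and the share called higher in MIII against MII was 6.17%. No member was called in the opposite direction in any of the 3 comparisons, where 4.95%, 2.96% and 5.55% of all genes were. With 8 members, shares this small give few calls, so this says little. The 4 members lower in MIV than in both lines compare with 2.40% of all genes, with the call of MMP2 against MII lost at an offset of 69.3 or with averaged probe sets, and the 2 members higher in MIII than in both with 4.07%. MMP1 and MMP10 were too dim to be tested. A call needs an adjusted p under 0.05 in limma over all genes and a change of at least 2-fold on the log2(signal + 18.3) scale, and each gene is represented by its brightest probe set. The comparisons share arrays, and the members were chosen with earlier results of these data known, so the counts describe the family. The exact two-sided permutation test over 3 against 3 arrays cannot go below p = 0.1, the value it gave for each of these calls.

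**Figure D1:**
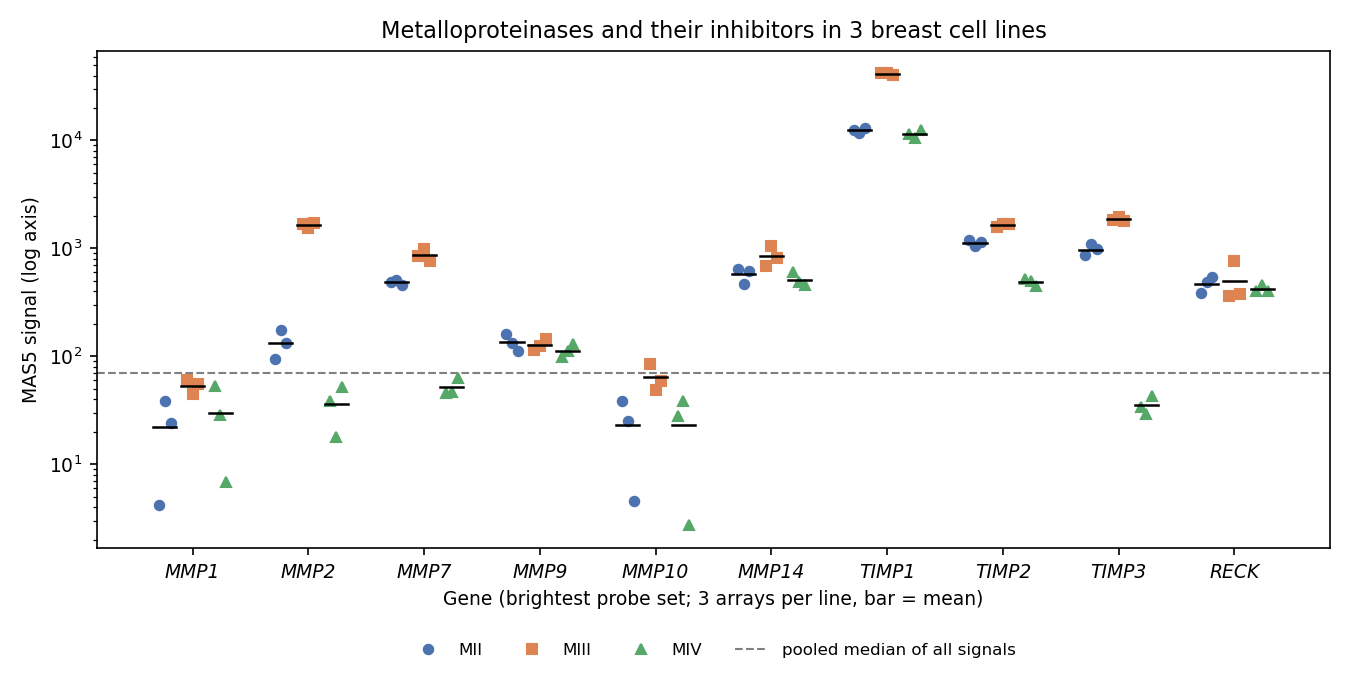
MAS5 signal on a log axis for the brightest probe set of each of the 10 genes, with 3 arrays per line (MII circles, MIII squares, MIV triangles), bars for means and a dashed line at the pooled median of 69.3. MMP2, MMP7 and TIMP3 lie above the line in MII and MIII and below it in MIV, while TIMP1 stands apart in MIII, between 40605.8 and 41916.4.

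The promoter sequences of 6 members were present in the RefSeq table of GRCh38.p14. Those of MMP7, TIMP3 and TIMP1 are shown because these genes are among the called members and their promoters differ in type. Each line gives the 250 bases before the annotated gene start, 5′ to 3′ on the gene's strand. Capitals mark matches, on either strand, to 4 motifs, and no marked match overlaps another. The AP-1 motif, bound by FOS and JUN proteins, was searched as TGANTCA. The TCF motif, bound by the DNA-binding partners of beta-catenin, was searched as CTTTGAA. The TATA box was searched as TATAAA. The GC box, bound by SP1 and its relatives, was searched as GGGCGGG.
MMP7, chr11:102530748-102530997, minus strand: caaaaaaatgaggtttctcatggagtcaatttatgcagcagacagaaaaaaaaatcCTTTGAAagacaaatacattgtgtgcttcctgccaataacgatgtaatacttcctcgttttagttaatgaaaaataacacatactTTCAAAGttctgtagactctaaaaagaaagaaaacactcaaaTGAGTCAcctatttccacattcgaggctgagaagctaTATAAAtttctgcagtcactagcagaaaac
TIMP3, chr22:32801455-32801704, plus strand: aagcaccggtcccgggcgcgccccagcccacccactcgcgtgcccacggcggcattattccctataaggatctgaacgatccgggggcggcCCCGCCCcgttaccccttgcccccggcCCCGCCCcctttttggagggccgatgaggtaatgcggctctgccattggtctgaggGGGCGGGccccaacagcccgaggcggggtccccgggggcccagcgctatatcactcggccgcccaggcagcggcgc
TIMP1, chrX:47582186-47582435, plus strand: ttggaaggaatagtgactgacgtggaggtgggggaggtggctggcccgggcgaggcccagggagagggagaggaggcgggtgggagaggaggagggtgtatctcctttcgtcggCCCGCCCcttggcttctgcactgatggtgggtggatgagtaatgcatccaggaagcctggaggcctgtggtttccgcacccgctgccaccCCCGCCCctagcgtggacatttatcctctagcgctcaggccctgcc
The MMP7 window held 1 AP-1 match beginning 67 bases before the start, 2 TCF matches at 194 and 109 bases, and a TATA box at 30 bases. MMP10, whose signal was near the floor, also had an AP-1 match at 67 bases (TGAATCA) and a TATA box at 31 bases. The TIMP3 window held 3 GC boxes and 26 CpG dinucleotides, more than 80.4% of all promoters, against 3 CpG in MMP7 and 12 in TIMP1. GC boxes numbered 2 in TIMP1, 3 in RECK and 1 in MMP14. Among 35116 promoters of this length, 6.57% held the AP-1 letters, 3.80% the TCF letters, 10.7% the TATA letters and 31.5% the GC box letters. These matches describe letters and not occupied sites, and none of the 4 motifs was found in all 3 sequences.

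Among the proteases, MMP2 differed most between the lines. MMP2 (chr16:55478830-55506691), gelatinase A, digests denatured collagen and basement membrane collagen. Its brightest probe set (201069_at) gave signals of 94.7, 174.0 and 133.1 in MII, 1689.8, 1546.8 and 1731.1 in MIII and 38.2, 17.8 and 51.8 in MIV. No arrays of different lines overlapped, and all MIV arrays lay under the pooled median. The log2 change was -5.00 ± 0.24 (SE) in MIV against MIII (limma, adjusted p = 6.97e-10) and -1.51 ± 0.24 against MII (adjusted p = 0.000170). MIII exceeded MII by 3.49 ± 0.24 (adjusted p = 3.32e-08). Taking the pooled median as the lowest level that can be read in MIV, the signal was at least 23.9-fold lower than in MIII and at least 1.87-fold lower than in MII. With an offset of 69.3, the pooled median, in place of 18.3, the change in MIV against MII was -0.94 and short of 2-fold. The other MMP2 probe sets were dim: 1566678_at ranged from 18.0 to 90.9 and 1566677_at from 4.0 to 33.3 over all arrays, and neither was called. Averaging all 3 probe sets left MMP2 called in MIV against MIII (-1.66) and in MIII against MII (1.38), but not in MIV against MII (-0.28).

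MMP7 (chr11:102520508-102530747), matrilysin, lacks the hemopexin domain of most family members and cuts many cell surface proteins. Its only probe set gave 483.9, 503.8 and 461.5 in MII, 851.5, 979.3 and 756.7 in MIII and 45.5, 46.9 and 63.2 in MIV. The 3 lines did not overlap, and the MIV arrays were again all under the pooled median. MMP7 fell by 3.65 ± 0.14 on the log2 scale in MIV against MIII (adjusted p = 8.58e-11), or at least 12.4-fold against the pooled median. Against MII it fell by 2.85 ± 0.14 (adjusted p = 2.06e-09), or at least 6.97-fold. The change in MIII against MII was 0.81 ± 0.14 (adjusted p = 0.000317), short of 2-fold.

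MMP14 (chr14:22836585-22847758), the membrane-type protease that processes pro-MMP2, varied less. On its brightest probe set (160020_at) the signals were 648.6, 468.2 and 612.1 in MII, 686.5, 1042.0 and 809.9 in MIII and 605.3, 484.4 and 453.4 in MIV. MIII was highest and overlapped neither other line, while MII and MIV overlapped. The log2 changes were -0.69 ± 0.16 in MIV against MIII (adjusted p = 0.00236) and 0.53 ± 0.16 in MIII against MII (adjusted p = 0.0136), both short of the 2-fold minimum. Between MIV and MII it was -0.16 ± 0.16 (adjusted p = 0.471). All 4 probe sets of MMP14 had their highest mean in MIII, with log2 changes of 0.53 to 0.95 against MII, and none was called. Close to the 2-fold minimum, 202828_s_at was called in MIII against MII with an offset of 1 (1.04) and without MII replicate 2 (1.09), MII replicate 3 (1.21) or MIII replicate 3 (1.24), and in MIV against MIII without MIII replicate 3 (-1.11). 217279_x_at was called in MIII against MII without MII replicate 3 (1.17).

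MMP9 (chr20:46008908-46016561), gelatinase B, was dim and overlapped in every pair of lines. Its signals were 160.0, 132.7 and 111.2 in MII, 113.5, 124.1 and 144.1 in MIII and 98.8, 111.2 and 128.7 in MIV. The log2 change of MIV was -0.15 ± 0.20 against MIII and -0.22 ± 0.20 against MII, and that of MIII against MII was -0.06 ± 0.20, with adjusted p between 0.435 and 0.825. Of the pair of gelatinases, MMP2 alone was called in these lines.

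MMP1 and MMP10 could not be tested, since neither exceeded the pooled median on 3 arrays. MMP1 (chr11:102789919-102798160), the interstitial collagenase, had signals of 4.2, 38.1 and 24.2 in MII, 60.1, 44.4 and 55.4 in MIII and 53.1, 28.6 and 6.9 in MIV. MMP10 (chr11:102770502-102780628), stromelysin 2, had 38.7, 25.3 and 4.6 in MII, 84.3, 48.4 and 58.4 in MIII and 27.9, 38.8 and 2.7 in MIV. Apart from 84.3 for MMP10 on MIII replicate 1, all these values are under the pooled median, and no fold is given between such values. Without the filter, neither was called, with a limma adjusted p in MIII against MII of 0.137 for MMP1 and 0.0886 for MMP10.

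MMP7, MMP10 and MMP1 lie in a cluster of protease genes on chromosome 11. In genome order the cluster runs MMP7, MMP20, MMP27, MMP8, MMP10, MMP1, MMP3, MMP12 and MMP13, between bases 102520508 and 102955732 of GRCh38.p14. MMP7, the first gene of the cluster, was above the pooled median on 6 arrays, and MMP10 on 1. The other 7 genes were above it on 0 of 9 arrays, with line means between 1.1 for MMP20 and 53.3 for MMP1. At these signals the neighbours could not be compared between lines, so the fall in MIV was measured for MMP7 alone.

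Among the inhibitors, TIMP3 fell furthest in MIV. TIMP3 (chr22:32801705-32863041, inside the annotated bounds of SYN3) is the TIMP that binds to the matrix and also inhibits ADAM proteases. Its brightest probe set (201150_s_at) gave 861.8, 1088.4 and 977.7 in MII, 1818.5, 1969.2 and 1808.7 in MIII and 33.9, 28.9 and 42.9 in MIV. Each MIV array was under the pooled median, and no lines overlapped. The signal in MIV was at least 26.9-fold lower than in MIII and at least 14.02-fold lower than in MII, counted against the pooled median. In limma the log2 changes were -5.14 ± 0.12 in MIV against MIII (adjusted p = 7.64e-13) and -4.22 ± 0.12 in MIV against MII (adjusted p = 9.11e-12). All 4 TIMP3 probe sets were called lower in both, with changes of -5.14 to -3.09 against MIII and of -4.22 to -2.41 against MII. The smallest fall was on 201148_s_at, where 2 of the MIV arrays, at 102.5 and 105.0, stayed above the pooled median. In MIII against MII the 4 probe sets gave 0.68 to 0.93, all with an adjusted p under the threshold and short of 2-fold. Leaving out MII replicate 2 brought the brightest probe set to 1.01 and past that minimum. SYN3, the synapsin gene around TIMP3, had means of 27.7, 24.6 and 19.9 in MII, MIII and MIV and was above the pooled median on 0 arrays.

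TIMP2 (chr17:78852977-78925387), the inhibitor that also takes part in pro-MMP2 activation, was lower in MIV. On its brightest probe set, 231579_s_at, the signals were 1208.1, 1044.9 and 1146.8 in MII, 1591.6, 1665.9 and 1679.3 in MIII and 521.5, 499.5 and 443.7 in MIV. The 3 lines did not overlap, and the MIV arrays stayed above the pooled median. TIMP2 fell by 1.72 ± 0.08 in MIV against MIII (adjusted p = 8.62e-10) and by 1.19 ± 0.08 in MIV against MII (adjusted p = 7.17e-08). In MIII against MII the change was 0.53 ± 0.08 (adjusted p = 0.000119), short of 2-fold. On 224560_at the signals were 523.9, 404.5 and 598.1 in MII, 621.3, 853.1 and 820.9 in MIII and 279.0, 195.4 and 245.7 in MIV. The dimmer 203167_at had 176.3, 319.0 and 277.8 in MII, 155.9, 236.9 and 189.9 in MIII and 73.3, 25.8 and 109.2 in MIV, where 1 array was under the pooled median. Both were called lower in MIV, at -1.60 and -1.39 against MIII and at -1.02 and -1.75 against MII. The call of 203167_at against MIII was lost with an offset of 69.3 (-0.96) and without MIV replicate 2 (-0.958). The call of 224560_at against MII lies close to the 2-fold minimum and was lost under 4 other scalings or offsets and without MII replicate 1, MII replicate 3 or MIV replicate 2, at -0.996 to -0.89. For MIII against MII, 224560_at gave 0.58 ± 0.17 and 203167_at -0.36 ± 0.33, so the direction of that step differed between probe sets.

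TIMP1 (chrX:47582436-47586789, inside the annotated bounds of SYN1), a soluble inhibitor of most secreted family members, was the brightest member in every line. Its percentile among the genes tested ran from 96.1 to 99.8 over the arrays. Signals were 12548.2, 11762.2 and 13020.1 in MII, 41916.4, 41896.6 and 40605.8 in MIII and 11466.0, 10607.2 and 12481.0 in MIV. MIII stood far above both other lines, while MII and MIV overlapped. TIMP1 fell by 1.85 ± 0.06 in MIV against MIII (adjusted p = 9.55e-12), and rose by 1.74 ± 0.06 in MIII against MII (adjusted p = 1.86e-11). Between MIV and MII the log2 change was -0.11 ± 0.06 (adjusted p = 0.138). Signals this bright can be compressed by saturation, which the deposited values do not flag. SYN1, the surrounding synapsin gene, averaged 26.9 (MII), 39.2 (MIII) and 23.7 (MIV) and exceeded the pooled median on 0 arrays.

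RECK (chr9:36036913-36124455) gave different answers on different probe sets. Its brightest, 216153_x_at, had 382.2, 492.6 and 541.2 in MII, 360.7, 763.1 and 379.7 in MIII and 405.7, 453.1 and 402.3 in MIV. On that probe set all lines overlapped, and the log2 changes were -0.16 ± 0.22 for MIV against MIII (adjusted p = 0.578), -0.15 ± 0.22 for MIV against MII (adjusted p = 0.631) and 0.01 ± 0.22 for MIII against MII (adjusted p = 0.968). Another probe set, 205407_at, which the annotation ties to the RefSeq mRNA, had 42.0, 10.6 and 29.4 in MII, 220.7, 423.7 and 272.5 in MIII and 29.7, 34.8 and 5.5 in MIV. There every MIII array was above the pooled median and every array of the other lines below it. In the fit over 29597 probe sets it was lower in MIV than in MIII (-2.99 ± 0.39, adjusted p = 2.49e-05) and higher in MIII than in MII (2.84 ± 0.39, adjusted p = 4.69e-05). Against the pooled median each is a difference of at least 4.25-fold. This probe set passed the filter only through its 3 MIII arrays, so a difference was bound to appear there, and without any 1 of those arrays it was not tested.

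The remaining RECK probe sets lay between. 1558115_at averaged 73.3 ± 11.7 (MII), 178 ± 47.2 (MIII) and 106 ± 27.5 (MIV) (SD, n = 3 arrays). 1558116_x_at averaged 74.3 ± 24.9 (MII), 187 ± 9.45 (MIII) and 143 ± 17.7 (MIV). Both were called higher in MIII against MII, at 1.08 ± 0.24 (adjusted p = 0.00281) and 1.19 ± 0.22 (adjusted p = 0.000800). With the offset at the pooled median both were short of 2-fold, at 0.78 and 0.85, as was 1558115_at without MII replicate 2 (0.97) or MIII replicate 2 (0.89) and 1558116_x_at without MII replicate 3 (0.94). The fifth, 216156_at, reached at most 22.3 on any array. The suffix _x_at marks probe sets with probes that may match other sequences, and _s_at marks those that match several transcripts. RECK restrains MMP2, MMP9 and MMP14 at the cell surface. In MIII against MII none of its tested probe sets gave a negative change, but size and call differed. Probe sets 1558115_at and 1558116_x_at were called higher, and the brightest (0.01) was not called. 205407_at was called higher (2.84), but it passed the filter only through its MIII arrays. Taken as a gene, RECK was called higher in MIII than in MII with averaged probe sets (1.03, adjusted p = 0.000658) or with its brightest suffix-free probe set (1.08, adjusted p = 0.00224). That average includes 205407_at, so it is not separate support, and an average without 205407_at was not tested. The suffix-free probe set is 1558115_at, already counted above.

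**Figure D2:**
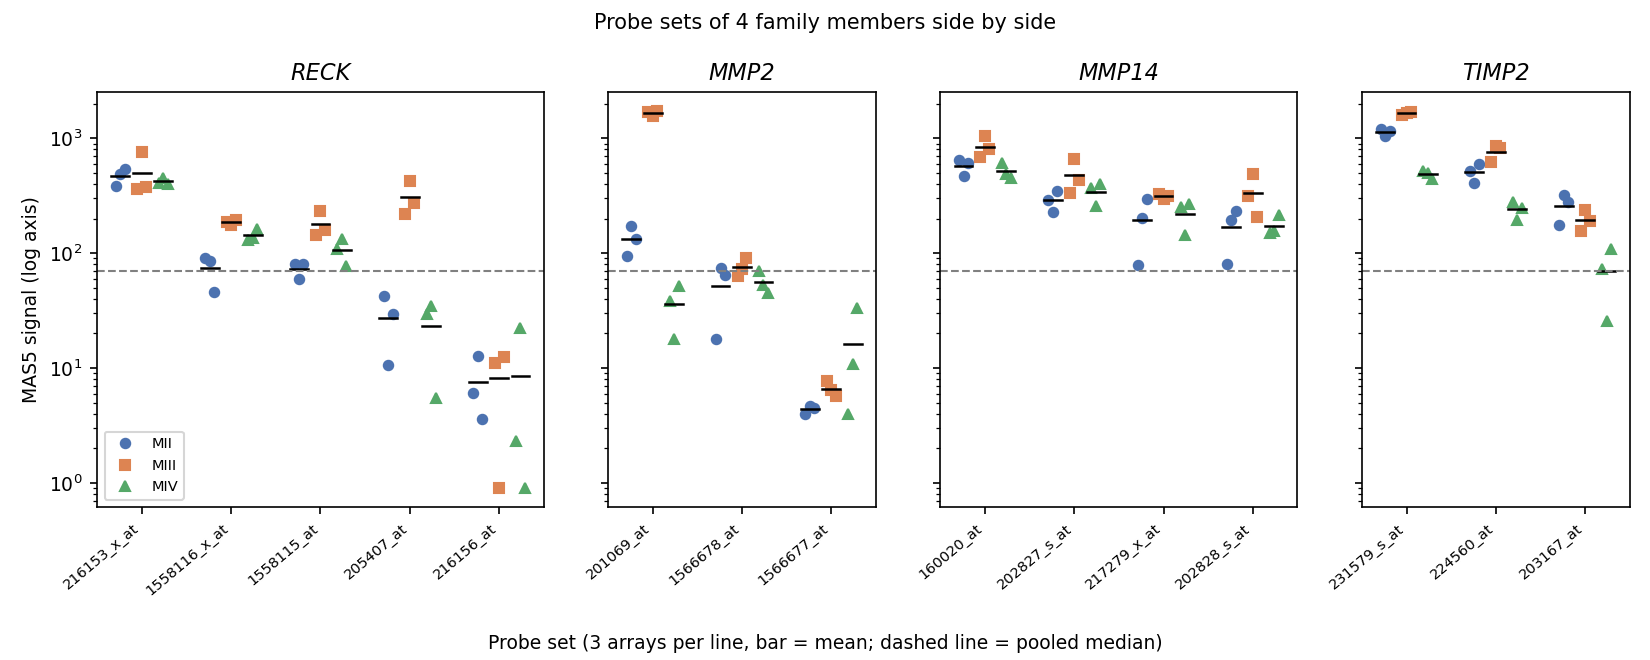
MAS5 signals on a log axis for all probe sets of RECK, MMP2, MMP14 and TIMP2, with 3 arrays per line, bars for means and a dashed line at the pooled median of 69.3. The RECK probe set 205407_at separates MIII (220.7 to 423.7) from both other lines, whereas on 216153_x_at the lines overlap.

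Over probe sets, 20 of the 24 passed the filter and 11 were called lower in MIV against MIII, where 6.90% of all probe sets were. Against MII, 9 were called lower in MIV, with 4.20% of all probe sets, and 5 were called higher in MIII against MII, with 5.56%. None of the 20 was called in the opposite direction, where 1246, 745 and 1337 of all 29597 probe sets were in the 3 comparisons. Such small shares give few calls among 20 probe sets, so this too says little. The 11 and the 5 include 205407_at of RECK, which passed the filter only through its MIII arrays. Among the 5, 1558115_at and 1558116_x_at are also of RECK. Probe sets of 1 gene share its transcripts and are not independent. Without MIII replicate 2, the count in MIII against MII was 3 in place of 5, as RECK lost 205407_at and 1558115_at.

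**Figure D3:**
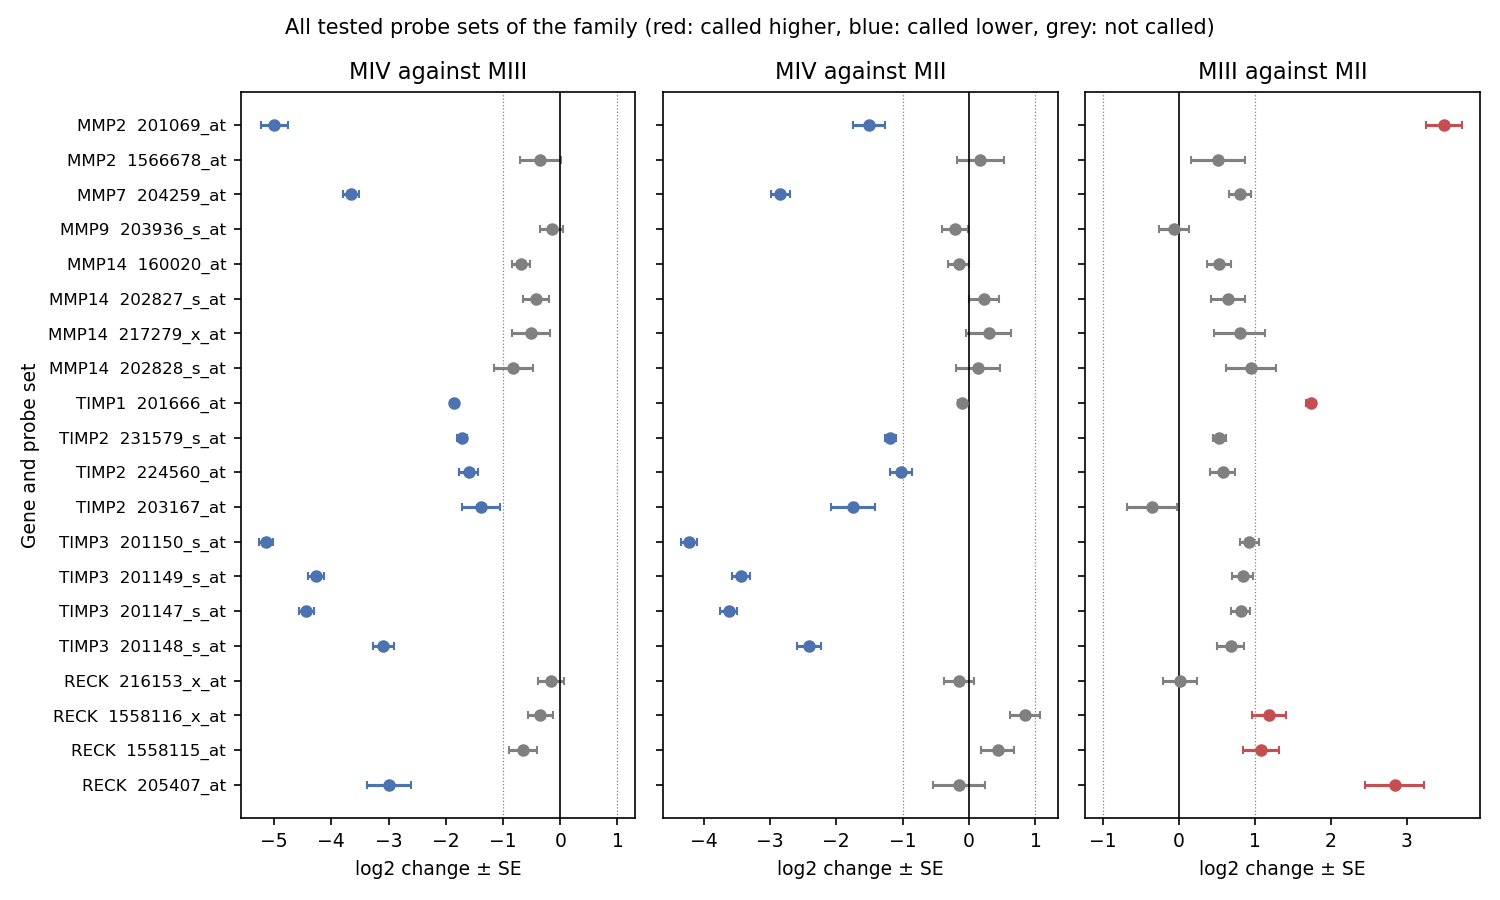
Log2 change with its standard error (limma, log2(signal + 18.3) scale) for the 20 tested probe sets of the family in the 3 comparisons, with dotted lines at a change of 2-fold. The probe sets of TIMP3 all lie between -5.14 and -2.41 in the comparisons with MIV, and RECK spans -2.99 to -0.16 in MIV against MIII.

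Of the 10 members, each on its brightest probe set, 7 had their highest mean signal in MIII and MMP9 had it in MII. MMP1 and MMP10 have no order, since all their line means lie under the pooled median. The lowest mean was in MIV for 8 of the 10, all those that can be ordered. For MMP9, MMP14, TIMP1 and RECK, however, the MIV and MII arrays overlapped. MII was instead lowest on 202827_s_at, 217279_x_at and 202828_s_at of MMP14, and on 1558115_at and 1558116_x_at of RECK. On 1558116_x_at the means were 74.3 (MII) and 143 (MIV), without overlap. On its brightest probe set, the place of RECK in both counts rests on MIII replicate 2 (763.1). Without that array its log2 change was 0.17 in MIV against MIII and -0.32 in MIII against MII. Among all 19775 named genes, 23.0% had their highest mean in MIII and above the pooled median, and 22.6% had their lowest in MIV with some line above it. The total for both shares includes genes without an order, as do the counts of 7 and 8 of 10 members. On the brightest probe sets, MMP2 alone had a call between each pair of neighbouring lines in that order, the one between MIV and MII being lost with an offset of 69.3 (-0.94) or with averaged probe sets (-0.28, adjusted p = 0.385). MMP7, TIMP2 and TIMP3 had one between MIV and the others but not between MIII and MII, and TIMP1 had none between MIV and MII. MMP9, MMP14 and RECK had no call. The median log2 change of the 8 tested members was -1.78 for MIV against MIII, -0.70 for MIV against MII and 0.67 for MIII against MII, beside medians of -0.01, -0.03 and -0.02 over all genes. The calls held both proteases and inhibitors: 2 of the 4 tested proteases (MMP2 and MMP7) and 3 of the 4 inhibitors (TIMP1, TIMP2 and TIMP3) fell in MIV against MIII.

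Of 10 markers of fibroblasts, a cell type that makes MMP2 and TIMPs in tissue, 3 had a mean above the pooled median in MII, 7 in MIII and 2 in MIV, and their summed signal was 1142 to 1197 in MII, 6531 to 6861 in MIII and 790 to 870 in MIV. POSTN, THY1, COL3A1 and LUM passed the pooled median in MIII alone, and DCN averaged 75.03 (MII), 2511 (MIII) and 52.6 (MIV), while PDGFRA, PDGFRB and COL1A2 stayed under the pooled median in every line. FAP averaged 678 (MII), 405 (MIII) and 390 (MIV), and COL1A1 243 (MII), 213 (MIII) and 222.5 (MIV). The summed signal of the epithelial markers was 116169 to 122300 in MII, 72321 to 73860 in MIII and 117476 to 128019 in MIV. Of 6 leukocyte markers 4, 3 and 3 were above the pooled median in MII, MIII and MIV, with sums of 1783 to 1941, 787 to 929 and 608 to 763. CD14, at 1490 (MII), 594 (MIII) and 323 (MIV), and CSF1R, at 135 (MII), 82.5 (MIII) and 214.7 (MIV), were above it in every line. Of 6 endothelial markers 1, PECAM1, was above it in every line, with sums of at most 392, and PTPRC and CDH5 were below the pooled median in every line. The part of these cell types in the results for the family was not tested. In such bulk RNA, fewer cells of a type and less RNA per cell cannot be told apart.

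The other family members were mostly dim. Of 17 further genes measured, the other MMPs and TIMP4, 7 were bright enough to be tested, and TIMP4 was not among them. MMP19, a widely expressed secreted protease, averaged 13.5 ± 18.6 (MII), 595 ± 78.5 (MIII) and 4.57 ± 2.66 (MIV) (SD, n = 3). MMP16, a membrane-type protease, averaged 11.9 ± 9.79 (MII), 179 ± 46.0 (MIII) and 24.2 ± 35.9 (MIV). All MII and MIV arrays of both were under the pooled median, against which MIII was at least 8.54-fold higher for MMP19 and at least 2.51-fold higher for MMP16. Both were called in the comparisons with MIII, but their log2 changes depend on the offset. In MIV against MIII that of MMP19 was -4.74 ± 0.37, and -6.88 with an offset of 1 or -3.16 with one of 69.3, and that of MMP16 was -2.50 ± 0.51, and -4.01 or -1.45. They passed the filter only through the 3 MIII arrays, so their calls describe a gene read in 1 line, and without any 1 MIII array neither was tested. MMP28, epilysin, a protease of keratinocytes, was instead highest in MII, with 1709 ± 71.4 (MII), 584 ± 7.86 (MIII) and 601 ± 4.66 (MIV). Its log2 changes against MII were -1.52 ± 0.07 in MIII and -1.48 ± 0.07 in MIV (adjusted p of 7.60e-10 and 1.78e-09), and the call in MIII was lost when its probe sets were averaged (-0.93). Of the 7, none was called higher in MIV in either comparison, where 4.95% of all genes were against MIII and 2.96% against MII. Against MIII, however, 1 was called higher with an offset of 1, quantile normalization or cyclic loess. The same count was reached without MIII replicate 1, MIII replicate 3 or MIV replicate 3. Without MIV replicate 2, 2 genes in place of 1 were called lower in MIV against MII, and without MIII replicate 1 the calls in MIII against MII numbered 1 in place of 3.

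Matrix and surface substrates of the proteases were tested in 17 cases, and the list shares COL1A1, COL1A2, COL3A1 and DCN with the fibroblast markers. In MIV against MIII 10 of them fell and 2 rose, with a list median of -1.54, beside 7.79% lower and 4.95% higher over all genes. In MIII against MII 10 rose and 1 fell, with a median of 1.62, beside 6.17% higher and 5.55% lower over all genes. The largest changes in MIV against MIII were those of SPARC, a collagen-binding protein (-5.31 ± 0.14), the proteoglycan decorin, DCN (-5.29 ± 0.29), and fibronectin, FN1 (-4.68 ± 0.13). The collagen COL3A1 is counted among the calls with MIII but passed the filter only through its 3 MIII arrays, which were at least 9.40-fold above the pooled median. Its change against MIV depends on the offset, at -4.59 ± 0.34, or -6.35 with an offset of 1 and -3.17 with one of 69.3. In MIV against MII 3 rose and 1 fell, beside 2.96% and 5.18% of all genes. On suffix-free probe sets only 10 genes were tested, IGFBP3 not among them, and 2 rose and 0 fell. FN1 (3.16 ± 0.13), SPARC (2.73 ± 0.14) and TNC (1.04 ± 0.10) were higher in MIV and IGFBP3 was lower (-2.74 ± 0.12). SPARC was under the pooled median on every MII array, so its signal in MIV was at least 4.70-fold higher, and DCN was under it on 2 of 3 MIV arrays. TNC lost its call when its probe sets were averaged (0.54) or with an offset of 69.3 (0.97). It was also lost without MII replicate 1 (0.96) or MIV replicate 1 (0.94). FN1 gave 0.27 and no call on its brightest suffix-free probe set in MIV against MII.

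Activators, docking partners and other inhibitors had 26 tested genes, of which 4 rose and 6 fell in MIV against MIII (median -0.09), beside 4.95% and 7.79% of all genes. In MIV against MII 2 rose and 3 fell, beside 2.96% and 5.18%, and in MIII against MII 7 rose and 5 fell, beside 6.17% and 5.55%. SPOCK1, a matrix proteoglycan, and SERPINE2, a serine protease inhibitor, followed MMP2 in being highest in MIII, with -3.78 ± 0.15 and -3.22 ± 0.06 in MIV against MIII and 3.41 ± 0.15 and 3.76 ± 0.06 in MIII against MII. ST14, the membrane serine protease matriptase, and CLDN1, a claudin, rose in MIV against MIII (2.22 ± 0.09 and 2.29 ± 0.06). LCN2, which binds and stabilises MMP9, was lower than in MII in both MIV (-2.83 ± 0.09) and MIII (-4.26 ± 0.09). KLK6, a kallikrein, showed the same order, with log2 changes of -4.09 ± 0.11 in MIV and -6.31 ± 0.11 in MIII against MII. PLAU, urokinase, was higher than in MII in both MIV (1.95 ± 0.12) and MIII (1.67 ± 0.12). PCSK5, a proprotein convertase, was lower than in MII in both MIV (-2.20 ± 0.17) and MIII (-1.35 ± 0.17).

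Transcription regulators known from MMP promoters had 25 tested genes, of which 3 rose and 4 fell in MIV against MIII, beside 4.95% and 7.79% of all genes. Against MII, 4 rose and 3 fell in MIV, beside 2.96% and 5.18%, and 4 rose and 1 fell in MIII, beside 6.17% and 5.55%. With averaged probe sets the rises and falls numbered 2 and 2 for MIV against MIII, 0 and 1 for MIV against MII, and 1 and 1 for MIII against MII. With an offset of 69.3, 2 rose and 2 fell in MIV against MII. Of the 20 genes tested on suffix-free probe sets, 2 rose and 1 fell in MIII against MII. RUNX2, a skeletal transcription factor, averaged 31.7 ± 7.18 (MII), 577 ± 21.5 (MIII) and 96.8 ± 15.0 (MIV). It was under the pooled median on every MII array, and MIII was at least 8.32-fold higher. Its changes were -2.38 ± 0.19 in MIV against MIII and 3.58 ± 0.19 in MIII against MII, and both calls were lost when its probe sets were averaged (-0.47 and 0.64). LEF1, a partner of beta-catenin at TCF motifs, was higher than in MII in both MIV (1.33 ± 0.31) and MIII (2.50 ± 0.31). With averaged probe sets these were 0.33 and 0.90 and not called. The call in MIV was also lost with an offset of 69.3 (0.87) and without MII replicate 3 (0.89). The epithelial factor ELF3 rose in MIV against MIII (2.03 ± 0.08) and was lower in MIII than in MII (-3.14 ± 0.08). SNAI2, a repressor of epithelial genes, fell in MIV against MIII (-1.54 ± 0.06), and ETS1 was higher in MIV than in MII (1.45 ± 0.10). ETV5 was higher in MIII than in MII (1.45 ± 0.07). With averaged probe sets both were short of 2-fold, at 0.82 and 0.88. ATF3, a stress-induced AP-1 partner, was higher in MIV than in MIII by 2.37 ± 0.20. With averaged probe sets, however, it gave 0.97, short of 2-fold, and on its brightest suffix-free probe set -0.40.

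**Figure D4:**
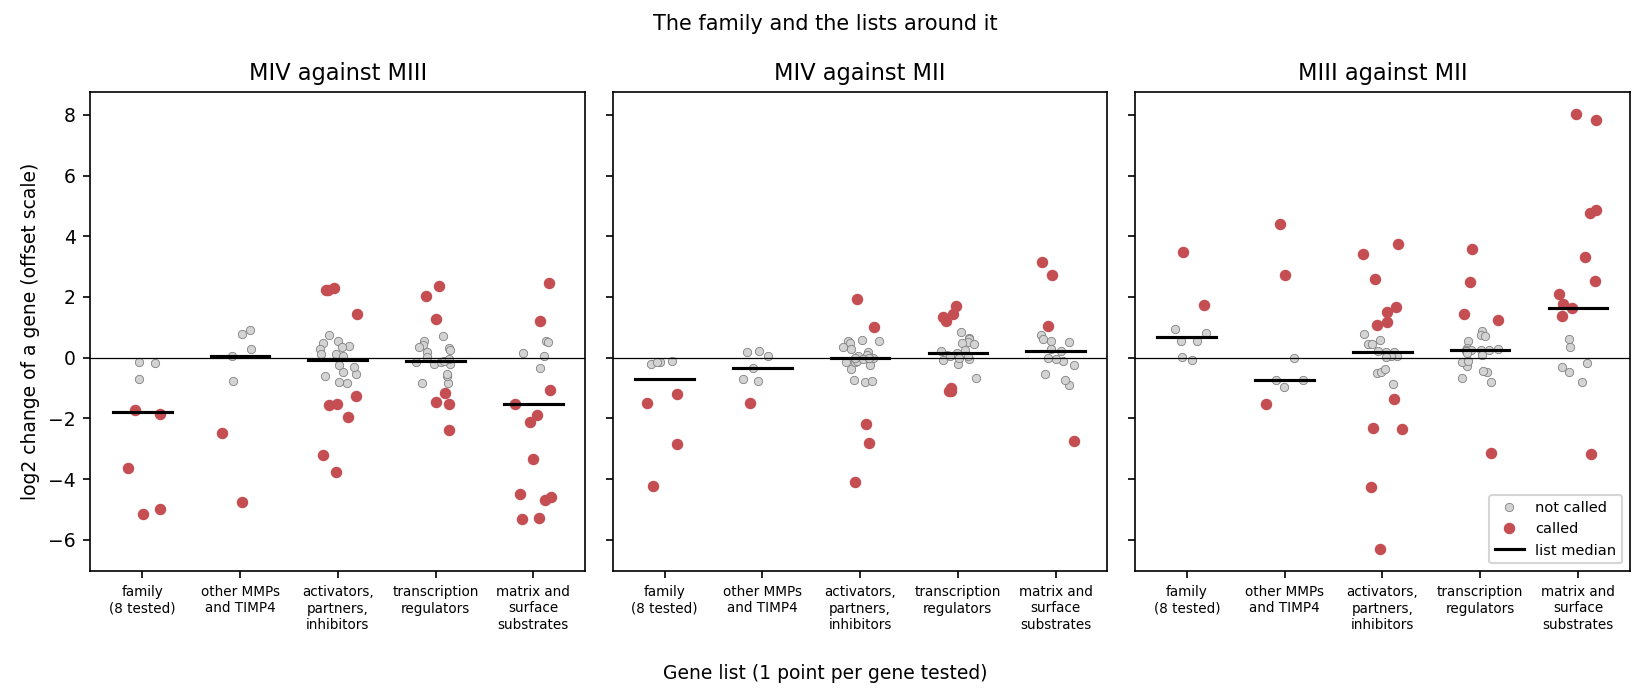
Log2 changes of single genes (1 point each, red where called) in the 8 tested family members and the 4 lists around them, with black bars for list medians. The family median is -1.78 in MIV against MIII and the substrate median -1.54, while the activator and regulator medians lie at -0.09 and -0.10.

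By Pearson correlation over the 9 arrays, the genes most like TIMP3 were MT1F, a metallothionein (r = 0.999), and ALG5 (r = 0.996). Those most like MMP2 were PRR16 and GLIPR1 (both r = 0.993), and those most like MMP7 were HMGB3 and MT1F (both r = 0.996). The 9 arrays fall into 3 lines, so r mainly reflects the order and spacing of 3 means. MT1F averaged 14591 in MII, 18052 in MIII and 5230 in MIV, a far smaller range than that of TIMP3 or MMP7.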

How the data were processed

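Total RNA of 3 lines was hybridised as biotin-labelled cRNA to Affymetrix arrays, per the labels' protocols. The intensity values that the authors deposited are linear MAS5 signals, as the submitters' processing notes name them. Their software version is not given in the sources used here, and detection calls were not used here. Each array's trimmed mean, over the middle 96% of signals, was 500.07, and no further scaling was applied. Of 54675 probe sets, 62 were controls and 41091 had 1 gene. Signals were tested as log2(signal + 18.3), the offset being the pooled 25th percentile. Genes or probe sets were kept if at least 3 of 9 arrays exceeded the pooled median of 69.3 and fitted in limma 3.58.1 (R 4.3.3) with line means and an intensity trend, leaving 6 residual degrees of freedom, with Benjamini-Hochberg adjustment over all tested (12594 genes, 29597 probe sets). Named genes were all members, up to 4 called genes per list and comparison with the largest change, and the 2 genes most correlated with each of the 3 members that changed most. The fit was tested on simulated data. Members and lists were chosen with earlier results of these data known, and the alternatives for listed genes were added after seeing the data. Alternatives covered the offset, normalization, filter, variance prior, probe set choice, threshold, the arrays of the compared lines alone, a replicate block and leaving out each array.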

Additional observations from a re-analysis of the deposited data

How the results depend on the processing

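With 23 alternatives each, the members called numbered 5 (MIV against MIII), 4 (MIV against MII) and 2 (MIII against MII) in the setting reported. At an adjusted p under 0.01 and at least 4-fold the counts were 3, 2 and 1, and without a fold minimum 6 members were called in MIII against MII, by construction of the thresholds. Of the member probe sets (11, 9 and 5 called), 7, 5 and 2 passed at 4-fold, and 15 were called in MIII against MII without a fold minimum. The 7 and the 2 at 4-fold include 205407_at of RECK, which passed the filter only through its MIII arrays. In MIII against MII 3 were called with the offset at the pooled median and 2 with the filter at the pooled 75th percentile. Leaving out 1 array gave 5 to 5, 4 to 4 and 2 to 3 members, and 10 to 11, 8 to 9 and 3 to 6 probe sets. Without MIV replicate 3 no gene-level member call changed.

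Signs changed for values of members that were not called, and for 1 listed gene that was. With averaged probe sets MMP14 gave 0.12 and RECK 0.19 in MIV against MII, and RECK gave 0.43 there on its brightest suffix-free probe set. In MIII against MII the same alternatives made RECK a called gene, at 1.03 and 1.08, where the reported value was 0.01. The average of 1.03 includes 205407_at, which passed the filter only through its MIII arrays. Leaving out 1 array gave RECK -0.35 to 0.17 in MIV against MIII and -0.32 to 0.20 in MIII against MII, and MMP9 -0.18 to 0.052 in MIII against MII. In MIV against MII it gave -0.25 to 0.42 for 1566678_at, -0.28 to 0.40 for 202828_s_at, -0.19 to 0.66 for 217279_x_at and -0.45 to 0.21 for 205407_at. ATF3 gave -0.40 on a suffix-free probe set. TIMP3 and MMP9 have no suffix-free probe set, so that alternative was not run for them.

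The replicate numbers did not pair the arrays: deviations of same-numbered arrays correlated between -0.04 and 0.04, and not every array correlated best with its own number. With the replicate block, 5, 4 and 2 members and 11, 9 and 5 probe sets were called, and over all genes 1607, 1026 and 1483, against 1604, 1025 and 1476 without it. All genes called fell to 681 with the offset at the pooled median in MIV against MII, to 893, 535 and 810 under the stricter filter, and lay between 257 and 6530 over the thresholds tried. For the lists, 29 of 276 counts moved by over 1.5 times. Without detection calls, signals below the pooled median have no order here.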
